A study of Mus musculus with 2 samples.

Results

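The Frizzled family comprises the receptors Fzd1 to Fzd10, and all 10 genes were found by symbol among the 19550 genes of the count matrix. Their unique molecular identifiers (UMIs, 1 for each captured transcript) were followed across the cell types, regions and stages of the developing mouse foregut. Cells came from wild-type C57BL/6 mice carrying no transgene, and were taken from esophagus, the gastroesophageal squamocolumnar junction (GE-SCJ) and stomach. The stages were embryonic day 15 (E15, 6 mice in the series description), embryonic day 19 (E19, 2 mice), pups 2 days old (2 mice) and adults 8 weeks old (3 mice). Mice of a region and stage were pooled under 1 oligonucleotide tag before a single 10x Genomics 3′ capture, so each of the 11 tagged combinations was 1 sample without a replicate. Adult stomach was not analysed here.

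Frizzled proteins are seven-pass receptors that bind WNT ligands through an extracellular cysteine-rich domain. Together with the co-receptors Lrp5 and Lrp6 they start the beta-catenin pathway, and with Ror, Ptk7, Vangl and Celsr proteins they take part in planar cell polarity. RNF43 and ZNRF3 remove Frizzled proteins from the cell surface, and secreted Frizzled-related proteins bind WNT outside the cell. WNT signalling is known for its part in patterning of the gut tube and in the upkeep of its epithelial stem cells.

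The matrix held 7808 cells and 107865155 UMIs, with 143 to 1403 cells and 2302227 to 20070615 UMIs per tag and a median of 10424.5 UMIs per cell. No barcode occurred more than once. The deposited annotation was merged into 8 classes, of which 54 combinations with a region and a stage held at least 20 cells. The 3442 cells with the deposited label Stromal are called fibroblasts here, a name that the deposited label does not give. The lists of class markers were highest for most cells in squamous (91.1%), columnar (98.6%), fibroblast (94.1%) and smooth muscle (88.5%) cells, but for only 31.0% of the 419 neural cells and 5.76% of the 139 cells labelled Stromal-2. Among adult cells, 37 of 478 had mostly prenatal cells as nearest neighbours, 5 of them among the 319 squamous cells. With 1 sample per group no test between groups was possible: levels are a gene's UMIs per 1000000 UMIs (CPM) of a group's summed counts, and brackets after a value hold 95% Poisson, binomial or conditional intervals that cover counting error only. Each 3′ UMI counts a molecule once, so levels of different members were compared without division by transcript length.

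Promoter windows of 4 members are shown because these genes had their highest group level in different cell types, Fzd5 in columnar epithelium, Fzd10 in squamous epithelium, and Fzd1 and Fzd7 in smooth muscle. Sequences are from RefSeq on GRCm38.p6, run 5′ to 3′ on the gene's strand from 250 bases before to 50 bases after the annotated start, and capitals mark matches on either strand to TATAAA, which is the core of a promoter box near the start site, to CCAAT, a box further from it, or to GGGCGG, the core of the box bound by Sp factors.
Fzd5, chr1:64737701-64738000, minus strand: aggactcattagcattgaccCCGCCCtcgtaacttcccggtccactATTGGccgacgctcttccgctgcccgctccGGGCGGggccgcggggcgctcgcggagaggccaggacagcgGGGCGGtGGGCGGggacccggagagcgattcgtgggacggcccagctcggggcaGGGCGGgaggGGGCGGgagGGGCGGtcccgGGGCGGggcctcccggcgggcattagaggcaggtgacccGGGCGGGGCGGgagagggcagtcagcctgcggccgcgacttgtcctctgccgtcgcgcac
Fzd10, chr5:128600856-128601155, plus strand: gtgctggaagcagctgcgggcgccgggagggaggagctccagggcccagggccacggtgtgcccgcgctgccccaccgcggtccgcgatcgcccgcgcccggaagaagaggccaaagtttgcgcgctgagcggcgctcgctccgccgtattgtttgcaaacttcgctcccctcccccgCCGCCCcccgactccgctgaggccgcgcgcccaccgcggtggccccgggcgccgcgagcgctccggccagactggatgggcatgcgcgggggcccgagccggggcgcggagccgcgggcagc
Fzd1, chr5:4758167-4758466, minus strand: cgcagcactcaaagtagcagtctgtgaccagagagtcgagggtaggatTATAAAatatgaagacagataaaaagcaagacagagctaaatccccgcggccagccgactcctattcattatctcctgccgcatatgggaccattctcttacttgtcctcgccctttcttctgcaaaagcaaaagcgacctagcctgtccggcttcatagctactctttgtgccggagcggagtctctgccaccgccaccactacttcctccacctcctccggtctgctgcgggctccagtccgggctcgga
Fzd7, chr1:59481897-59482196, plus strand: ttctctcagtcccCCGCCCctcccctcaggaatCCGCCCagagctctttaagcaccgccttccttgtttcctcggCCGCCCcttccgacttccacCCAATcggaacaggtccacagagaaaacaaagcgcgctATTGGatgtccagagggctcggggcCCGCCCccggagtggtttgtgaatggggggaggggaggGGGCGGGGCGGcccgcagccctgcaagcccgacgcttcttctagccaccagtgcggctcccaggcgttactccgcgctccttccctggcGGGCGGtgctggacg

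The Fzd5 window held 10 matches to GGGCGG and 1 to CCAAT, and the Fzd7 window held 7 and 2. Fzd10 had 1 GGGCGG in a window of 77.7% GC with 45 CpG dinucleotides, whereas the Fzd1 window had 54% GC, 16 CpG and a single TATAAA. Among 32851 windows of the same length, 35.7% held GGGCGG, whereas CCAAT was found in 37.4% and the motif TATAAA in 13.6%. The median GC content of those windows was 52.7%. The TCF/LEF motif CTTTGAT occurred in none of the 6 member windows and in 3.73% of all windows. The same held for GATAAG, bound by zinc finger factors of the gut, which was in 7.44% of all windows, and for the AP-1 motif TGACTCA, which was in 5.20%. A match is a description of the letters and not a binding site. Fzd1 (chr5:4753839-4758035), Fzd2 (chr11:102604396-102608058), Fzd7 (chr1:59482424-59486955), Fzd9 (chr5:135248938-135251230) and Fzd10 (chr5:128600844-128604093) each have 1 exon in the GRCm38 annotation. Fzd4 (chr7:89404355-89413134) and Fzd5 (chr1:64730558-64737751) have 2 exons, while Fzd3 (chr14:65192449-65262463) and Fzd6 (chr15:39006034-39038188) have 7. Gene positions here are those of the GENCODE annotation, whose starts differ from the RefSeq starts of some windows. The Fzd10 window lies within the gene so placed, and the Fzd1 and Fzd7 windows lie wholly before their genes. The longest run of bases shared between transcripts of 2 members was 47, and it was at most 19 within the last 500 bases, the part that 3′ reads cover.

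Frizzled transcripts were found in 6915 of 7808 cells (88.6%), with 31179 UMIs in all. Fzd2 gave the most UMIs (8124, 26.1% of the family), followed by Fzd4 (5125) and Fzd1 (5037). Fzd5 gave 4184 UMIs, Fzd3 3153, Fzd7 2475, Fzd6 1335, Fzd8 1299 and Fzd10 419. Fzd9 gave 28 UMIs in all and was too low to be compared, its highest group level being 4.38 CPM in neural cells of the GE-SCJ at E15. Summed over the 10 receptors, fibroblasts had 451 CPM, Stromal-2 cells 398, neural cells 375 and smooth muscle 364. Pooled over regions and stages, the epithelia were close to each other, at 187 CPM in columnar and 180 in squamous cells, and immune cells had 65.1 CPM. The squamous pool held a larger part of adult cells. Squamous groups ran from 120 CPM (adult GE-SCJ) to 349 (E15 esophagus), and columnar groups from 145 (pup stomach) to 302 (E15 GE-SCJ).

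**Figure D1:**
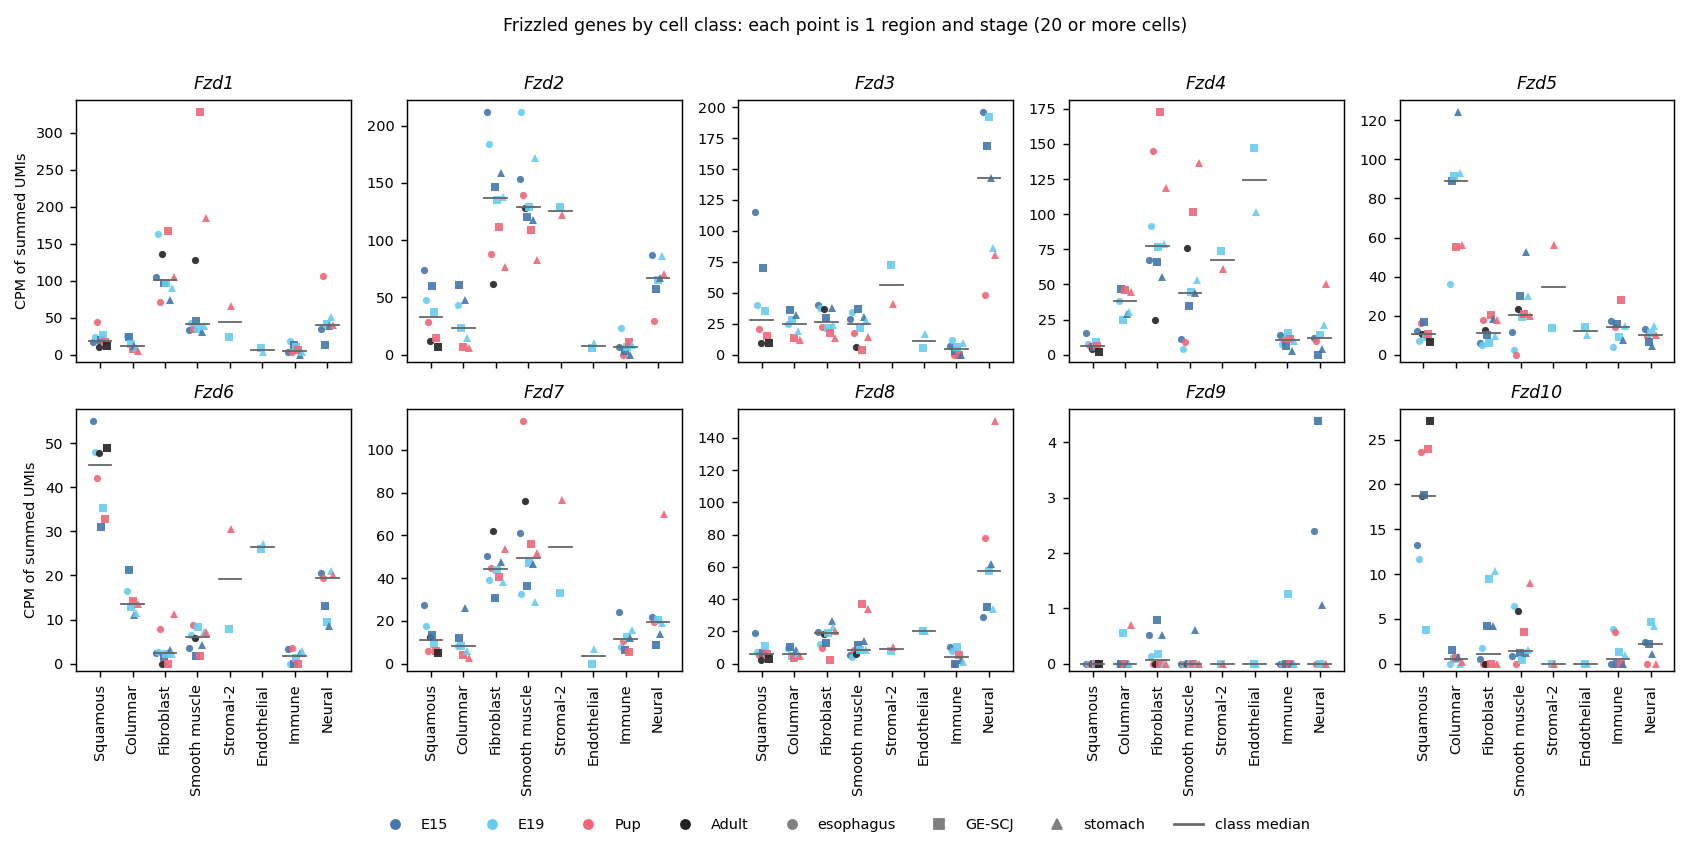
Level of each Frizzled gene (CPM of summed UMIs, vertical axis, which differs in scale between panels) in groups of 1 class, region and stage with at least 20 cells, 1 point per group, with colour for stage, shape for region and a line at the class median. The highest single point is columnar for Fzd5, squamous for Fzd6 and Fzd10, neural for Fzd3 and Fzd8, and in fibroblasts or smooth muscle for Fzd1, Fzd2, Fzd4 and Fzd7.

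The members that made up the family differed between classes in the pooled counts. Fzd5 made up 41.2% of the family's UMIs in columnar cells, with Fzd4 at 19.6% and Fzd3 at 10.4%. In squamous cells the largest share was 24.7% for Fzd6, followed by 17.8% for Fzd3, 16.6% for Fzd2, 10.4% for Fzd1 and 10.1% for Fzd10. Fibroblasts and smooth muscle both had Fzd2 as the largest share (34.8% and 37.5%) and Fzd1 as the next (24.1% and 17.0%). Fzd4 alone made up 58.0% in endothelial cells and Fzd3 41.1% in neural cells. The largest member by group was Fzd5 in 6 of 7 columnar groups and Fzd4 in 2 of 2 endothelial groups. It was Fzd2 in 7 of 10 smooth muscle groups and 6 of 10 fibroblast groups, and Fzd6 in 4 of 8 squamous groups. Some leads were narrow, as in esophageal squamous cells at E19 (82 Fzd6 and 81 Fzd2 UMIs) and in pups (43 Fzd1 and 41 Fzd6 UMIs). In adult esophageal smooth muscle Fzd1 and Fzd2 tied at 22 UMIs, and that group was not counted for Fzd2.

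**Figure D2:**
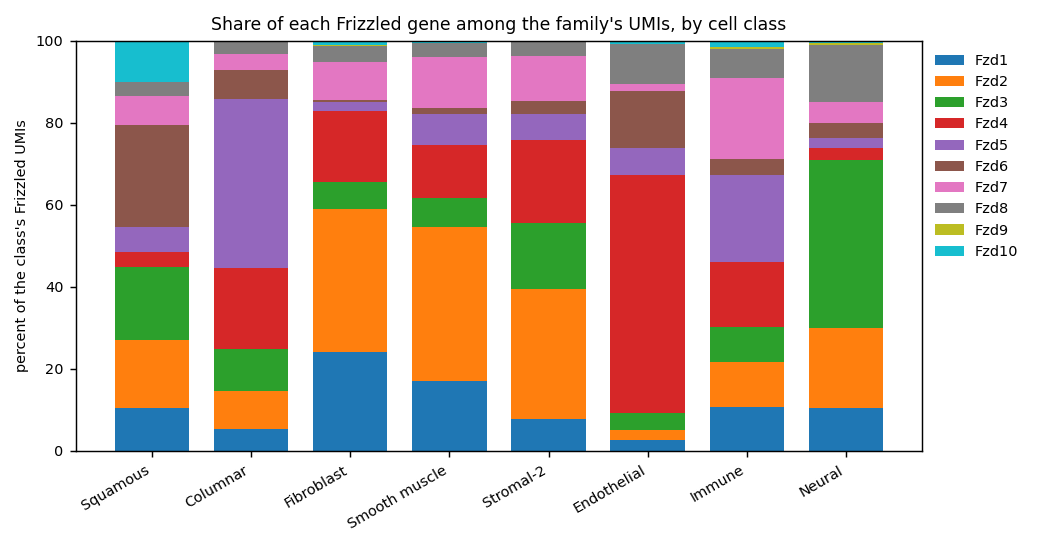
Share of the family's UMIs (percent, vertical axis) that each of the 10 Frizzled genes made up in each of the 8 cell classes, pooled over regions and stages. Fzd5 takes 41.2% in columnar cells, Fzd4 58.0% in endothelial cells and Fzd3 41.1% in neural cells. No member passes 24.7% in the squamous pool, whose leading member differed between stages. Fzd3 held 113 of 343 family UMIs in squamous cells of the E15 esophagus, and Fzd6 held 76 of 187 in the adult GE-SCJ.

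The order of the classes was read from the range of their groups. For Fzd6, the lowest squamous group (31.0 CPM [20.6, 44.8]) was above the highest group of every other class. Stromal-2 (30.6 [11.2, 66.5]) and endothelial cells (27.0 [11.7, 53.3]) came nearest, and these intervals overlapped that of the squamous group. All 157 endothelial cells pooled, with the groups under 20 cells, had 31.4 CPM [23.8, 40.8]. Stromal-2, endothelial, neural and columnar cells overlapped in part. For Fzd8, all neural groups (28.9 to 150) were above the endothelial groups (20.2 and 20.3), but pup smooth muscle of the GE-SCJ (36.9) and stomach (34.0) was above the lowest neural group. For Fzd5 the columnar median of 89.1 CPM (36.4 to 124) was the highest, but its lowest group overlapped smooth muscle, whose groups ran from 0 to 52.6, and Stromal-2 cells at 13.6 and 56.0. Fzd10 had the highest median in squamous cells, at 18.7 CPM (3.71 to 27.1), a range that overlapped fibroblasts (0 to 10.3) and smooth muscle (0 to 8.96), the lowest squamous value being that of the GE-SCJ at E19 with 2 UMIs.

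To compare single cells at equal depth, each cell was thinned to 5000 UMIs, which left out shallower cells (52 columnar, 130 squamous, 502 fibroblast, 198 smooth muscle, 83 neural, 50 endothelial and 101 immune cells). At this depth Fzd5 was detected in 29.4% [27.1, 31.8] of columnar cells and in 5.93% [3.36, 9.59] of immune cells, used as the class with the lowest family level. The shares without thinning were 73.6% and 10.7%, at median depths of 25118 and 8266.5 UMIs. Fzd6 was detected in 20.3% of squamous and 0.791% of immune cells, and Fzd10 in 8.0% [5.96, 10.5] and 0.395%. Fzd2 reached 52.0% of fibroblasts, Fzd1 37.3% of fibroblasts, Fzd3 49.1% of neural cells and Fzd4 48.6% of endothelial cells, against 1.98% to 5.53% of immune cells for these 4 genes. Immune cells were picked for their low family level in these same data, so higher shares elsewhere were favoured by that choice. The contrasts with them do not rank the other classes. At least 2 different Frizzled genes were detected in 54.0% of fibroblasts and 42.0% of smooth muscle cells, but in 22.2% of squamous and 20.8% of columnar cells.

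Esophageal squamous cells were compared with stomach columnar cells at E15, E19 and pup stages to ask how receptors differ between the epithelia that meet at the junction. A gene was counted as different when its CPM ratio was at least 2-fold in the same direction at all 3 stages, with at least 50 UMIs over both groups at each. Of 8488 genes so tested, 3.64% were higher in squamous and 4.68% higher in columnar cells, and of the 7 members tested Fzd6 was higher and Fzd5 lower. Fzd6, a receptor known for hair follicle polarity, had 55.0, 48.0 and 42.2 CPM in esophageal squamous cells at E15, E19 and pup against 11.1, 11.5 and 13.5 in stomach columnar cells. All squamous values were above all columnar ones, with log2 ratios of 2.30 [1.70, 2.90], 2.06 [1.63, 2.49] and 1.67 [1.14, 2.17]. Fzd5, a receptor needed in yolk sac and eye development, had 12.2, 7.02 and 16.5 CPM against 124, 92.9 and 56.0, and log2 ratios of -3.23 [-4.15, -2.45], -3.61 [-4.53, -2.83] and -1.68 [-2.47, -0.99]. Fzd4, the receptor of Norrin, was lower in squamous cells at each stage, with log2 ratios of -0.83, -1.90 and -2.64, and passed 2-fold only at E19 and pup. Fzd10 fell short of 50 UMIs and was not tested. It had 13.2, 11.7 and 23.6 CPM in squamous cells against 0.777, 0 and 0.175 in columnar cells.

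Squamous and columnar cells of the GE-SCJ itself gave a like comparison within 1 dissected region. Of 6024 genes, 2.41% were higher in squamous and 2.71% higher in columnar cells, and of the 5 members tested none was higher while Fzd4 and Fzd5 were lower. The log2 ratios of Fzd5 were -2.34, -3.04 and -2.20 and those of Fzd4 were -2.84, -1.17 and -2.62. Fzd6 had 31.0, 35.3 and 32.8 CPM in squamous against 21.2, 12.8 and 14.3 in columnar cells, so its log2 ratio at E15 was 0.55 [-0.24, 1.34] and the later ratios were 1.52 and 1.25. With a minimum of 100 UMIs, Fzd4 here and Fzd6 in esophagus against stomach were no longer tested.

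**Figure D3:**
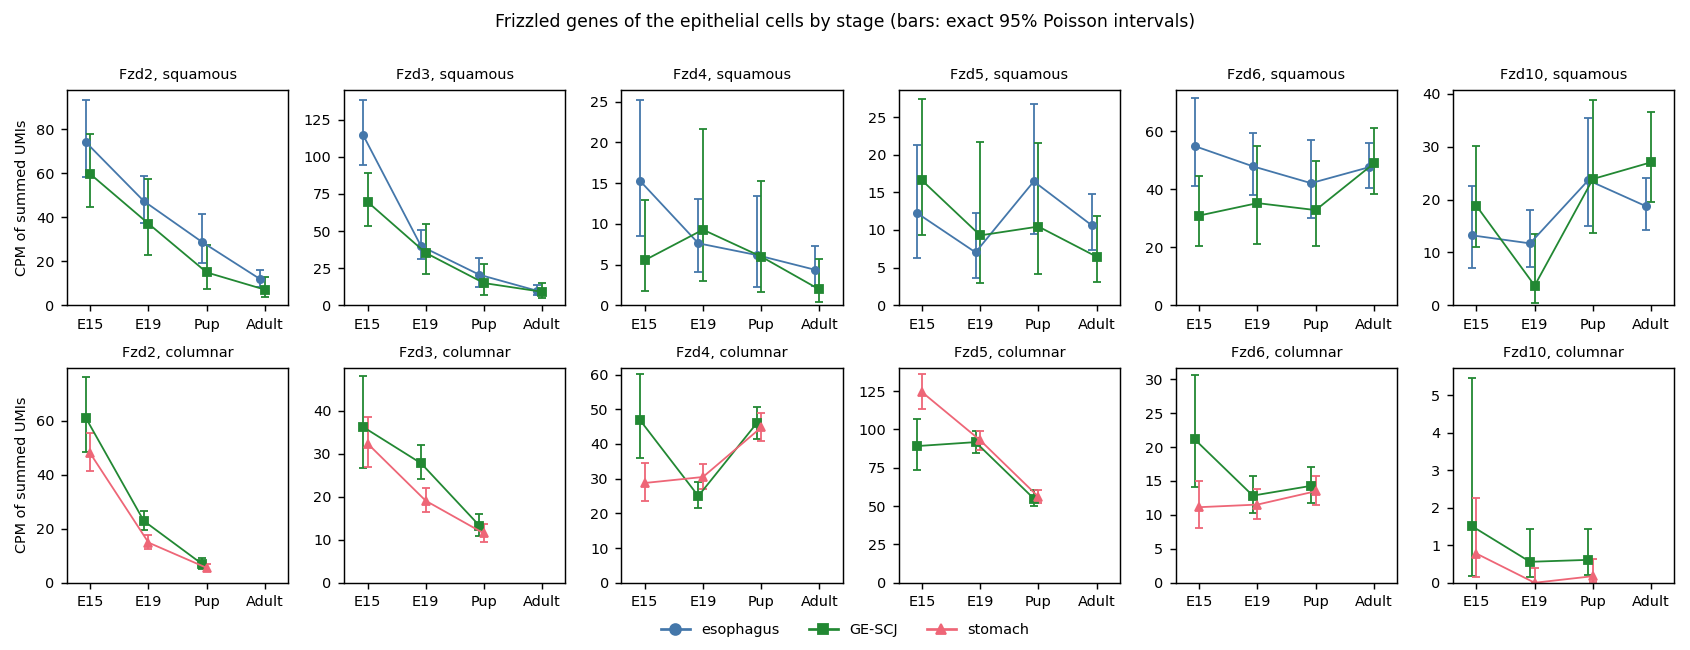
Level of Frizzled genes (CPM with 95% Poisson intervals as bars, vertical axis, which differs between panels) in squamous and columnar groups by stage and region, 1 point per pooled sample. Fzd3 and Fzd2 points lie lower at later stages in both epithelia, while squamous Fzd6 stays between 31.0 and 55.0 CPM.

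Within esophageal squamous cells, Fzd3 and Fzd2 were lower and Fzd6 about equal at later stages. Fzd3 (a receptor of axon guidance and planar polarity) had 115 CPM at E15, 39.8 at E19, 20.6 in pups and 9.66 in adults. In the GE-SCJ the same gene had 69.7, 35.3, 14.9 and 9.02 CPM, so that in both regions each stage was below the one before. Fzd2, which binds WNT5A among others, had 74.3, 47.4, 28.8 and 11.8 CPM in the esophagus and 59.7, 37.1, 14.9 and 7.09 in the GE-SCJ. Fzd6 ran between 42.2 and 55.0 CPM in the esophagus, and its adult to E15 log2 ratio was -0.22 [-0.68, 0.25]. For pup against E15 in the esophagus, 33.9% of 5214 genes were lower and 9.44% higher, and of 4 members tested Fzd2 and Fzd3 were lower (-1.34 and -2.43 [-3.17, -1.75]) and Fzd1 higher. The median gene of that comparison was lower by 0.67 on the log2 scale, and relative to it Fzd3 was at -1.75 and Fzd2 at -0.66, under 2-fold. In the GE-SCJ, 13.2% of 4312 genes were lower and 4.31% higher, and of 3 members Fzd2 (-1.89) and Fzd3 (-2.11) were lower and none higher, on fewer than 100 UMIs each. Adult against E15 esophagus, with 21.9% of 7881 genes lower and 10.3% higher, had Fzd2 (-2.63), Fzd3 (-3.54 [-4.15, -2.96]) and Fzd7 (-1.16) lower among 6 members and none higher. Relative to the median gene, lower by 0.44, Fzd7 was within 2-fold.

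Fzd1 in pup esophageal squamous cells came from 1 of 2 deposited labels. Over both labels it had 17.3 CPM at E15 and 44.2 in pups, a log2 ratio of 1.30 [0.48, 2.18]. The 29 pup cells labelled Squamous Epithelial-2 had 82.1 CPM [56.5, 115] of Fzd1, 4.98 of Fzd6 and 0 [0, 9.18] of Fzd10, whereas the 56 cells labelled Squamous Epithelial had 17.5, 68.3 and 40.3. Without the cells of the second label the Fzd1 difference did not reach 2-fold, and neither did that of Fzd2.

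Squamous cells were divided by the share of basal keratin UMIs among basal and suprabasal keratins, into basal (at least 66.7%) and suprabasal (under 33.3%) cells, with 75 cells between. In pups Fzd10 had 44.9 CPM [31.3, 62.5] in 77 basal cells and 7.95 [2.58, 18.5] in 41 suprabasal cells, a log2 ratio of 2.28 [1.02, 3.82]. In adults it had 33.1 and 16.1 CPM (1.05 [0.44, 1.65]). At E15 the ratio was 0.88 [-0.64, 2.85] and at E19 -0.85 [-2.38, 0.53], and both intervals included 0. Fzd6 had 55.2 and 12.7 CPM in basal and suprabasal pup cells but 47.8 and 48.2 in adults. Fzd1 was lower in basal cells of pups, at 14.1 against 60.4 CPM. The pup contrasts were not separated from the Squamous Epithelial-2 label, whose 29 cells held 33 Fzd1 UMIs, beside 38 in the 41 suprabasal cells.

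**Figure D4:**
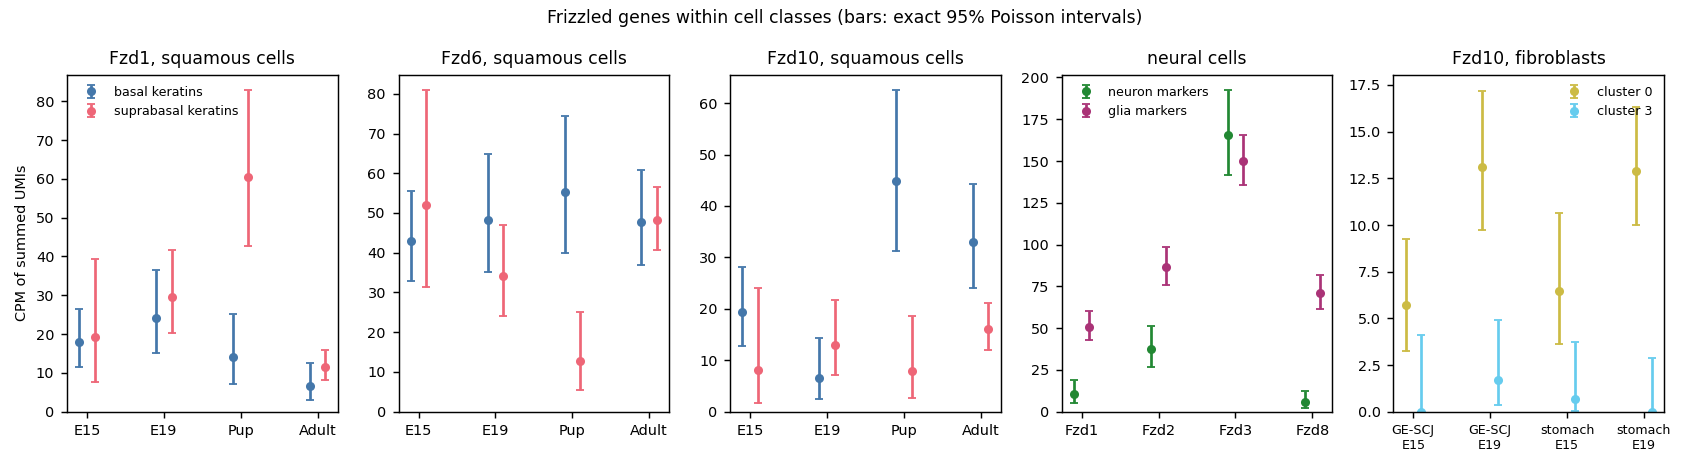
Levels of Frizzled genes (CPM with 95% Poisson intervals as bars, vertical axis, which differs between panels) in squamous cells divided by keratins, neural cells divided by neuron or glia markers, and prenatal fibroblasts divided by deposited cluster. Fzd10 in basal and suprabasal squamous cells is 44.9 and 7.95 CPM in pups, and Fzd8 in neural cells with neuron or glia markers is 5.75 and 71.0 CPM.

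In columnar cells Fzd5 was the highest member at E15 in both regions and was lower in pups. Stomach columnar cells had 124, 92.9 and 56.0 CPM of Fzd5 at E15, E19 and pup, and GE-SCJ columnar cells 89.1, 91.7 and 54.9. Fzd2 went from 47.9 CPM at E15 to 5.52 in pups in the stomach and from 61.2 to 6.96 in the GE-SCJ. Fzd4 was 28.7, 30.5 and 44.7 CPM in the stomach and 46.8, 25.0 and 45.9 in the GE-SCJ, without a common order. For pup against E15 in the stomach, 20.9% of 10789 genes were lower and 9.32% higher, and 5 of 8 members were lower (Fzd1 -1.17, Fzd2 -3.10, Fzd3 -1.50, Fzd5 -1.15 [-1.32, -0.98], Fzd7 -3.22) and none higher. Relative to the median gene, which was lower by 0.38, Fzd2 stood at -2.72 and Fzd7 at -2.84, but Fzd1 at -0.79 and Fzd5 at -0.77 were within 2-fold and Fzd4 was higher by 1.01. In the GE-SCJ, 21.8% of 9874 genes were lower and 8.81% higher, and of 6 members Fzd1 (-1.68), Fzd2 (-3.13 [-3.64, -2.63]) and Fzd3 (-1.46) were lower and none higher. Fzd5 was within 2-fold there (54.9 against 89.1 CPM), where the median gene was also lower by 0.38.

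Fibroblasts had the highest pooled family level of the classes, led by Fzd2, Fzd1 and Fzd4. From E15 to pup, Fzd2 had 212, 184 and 87.6 CPM in esophageal, 146, 135 and 112 in junctional and 159, 138 and 76.1 in stomach fibroblasts. Fzd4 ran the other way, with 67.5, 91.4 and 145 CPM in the esophagus, 66.1, 76.6 and 173 in the GE-SCJ and 55.0, 78.5 and 119 in the stomach. Each region thus had its highest Fzd4 in pups, with log2 ratios to E15 of 1.11 [0.75, 1.46], 1.40 [1.00, 1.79] and 1.13 [0.67, 1.57]. Esophageal adult fibroblasts (31 cells) had 24.8 CPM of Fzd4. In the esophagus 9.91% of 8813 genes were higher and 12.9% lower in pups than at E15, and of 6 members Fzd4 was higher and Fzd2 (-1.25) lower. In the GE-SCJ 9.43% of 8724 genes were higher and 13.7% lower, and of 6 members Fzd4 was higher and Fzd8 lower, the latter on 1 against 49 UMIs (-1.38 [-4.47, 0.54]). In the stomach 8.37% of 8948 genes were higher and 11.3% lower, and of 7 members Fzd4 was higher and Fzd2 (-1.02) and Fzd3 (-1.28) lower. The esophageal Fzd4 call was lost when only cells with fibroblast markers as their largest list were kept. The stomach Fzd2 difference was within 2-fold relative to the median gene, and that of Fzd3 after thinning. Pup fibroblasts had medians of 3859 to 5072.5 UMIs per cell against 9025 to 10573 in prenatal ones, and thinned to 5000 UMIs Fzd4 remained called in all 3 regions. That depth is above the pup medians of the esophagus (3859) and GE-SCJ (4242.5), so thinning kept only the deeper pup cells. Fzd7, a receptor of stem cells and early development, had 30.5 to 61.9 CPM over the 10 fibroblast groups with no order by stage.

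Only 4 members could be compared between fibroblasts of stomach and esophagus at this rule. Of 3677 genes, 0.598% were higher and 0.626% lower in the stomach at all 3 stages, and of 4 members tested none was called either way. With so few genes called, the lack of a call among 4 members says little about the receptors. Esophageal fibroblasts had 104, 163 and 71.7 CPM of Fzd1 and stomach fibroblasts 73.9, 89.5 and 105, so the sign of its ratio differed between stages. Fzd10, outside that count for low UMIs, had 10.3 CPM in stomach and 9.44 in GE-SCJ fibroblasts at E19 against 1.72 in the esophagus, a stomach to esophagus log2 ratio of 2.49 [1.62, 3.47].

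The fibroblasts with Fzd10 were mostly of 1 deposited cluster. Among 1999 prenatal GE-SCJ and stomach fibroblasts, 128 (6.4%) had an Fzd10 UMI. These were 124 of 1374 cells (9.02% [7.56, 10.7]) of cluster 0, led by Dach1, Adamdec1, Col6a4, Zfp536 and Foxl1, and 4 of 612 cells (0.654%) of cluster 3, led by Stmn2, Kit, Spon1, Crabp1 and Cdon. The cluster levels were 10.5 and 0.732 CPM, a log2 ratio of 3.53 [2.27, 5.17]. Squamous marker genes summed to 166 CPM in the 124 cluster 0 cells with Fzd10, 98.9 in the cluster 0 cells without it and 101 in cluster 3, at median depths of 11672.5, 9814.5 and 7970.5 UMIs, and their part in the Fzd10 signal was not tested.

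**Figure D5:**
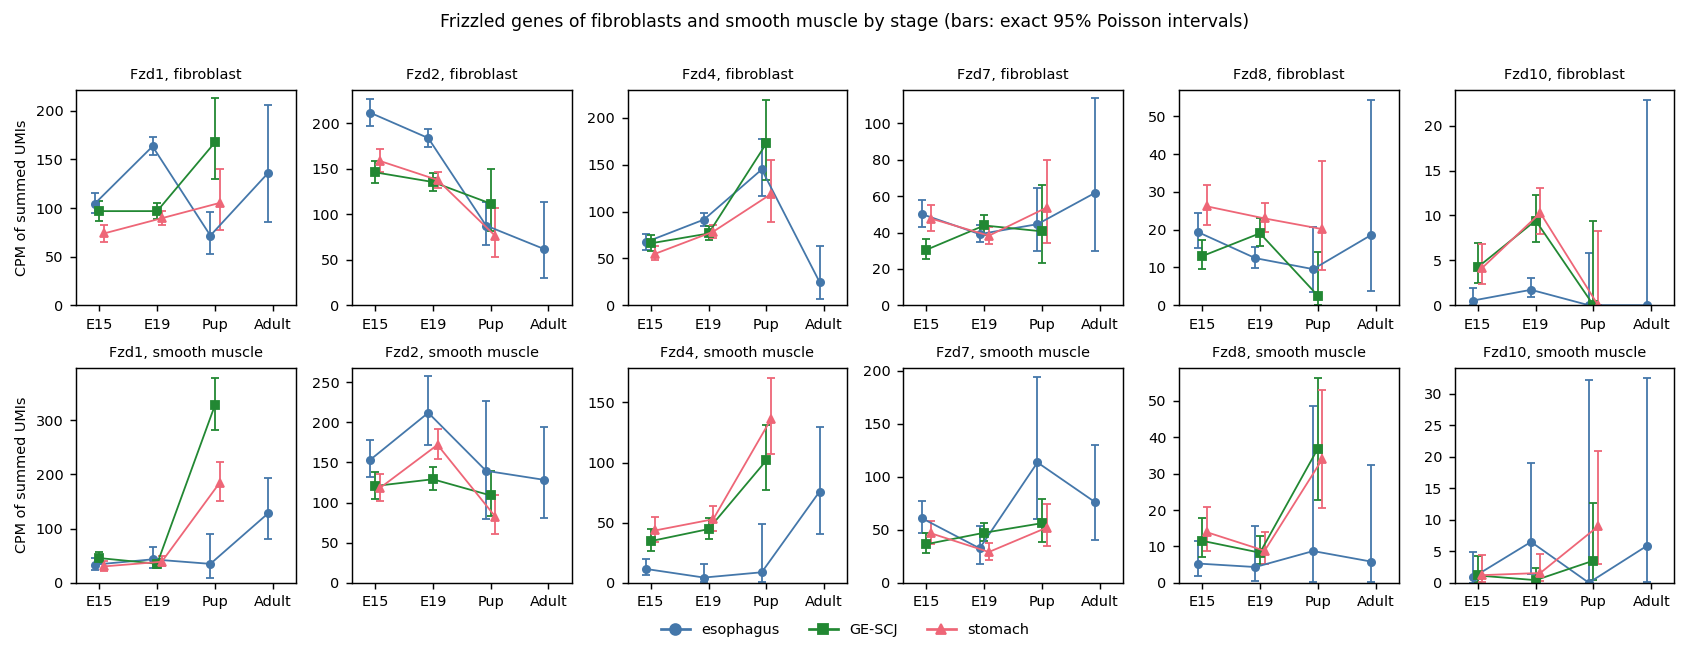
Level of Frizzled genes (CPM with 95% Poisson intervals as bars, vertical axis, which differs between panels) in fibroblast and smooth muscle groups by region and stage, 1 point per pooled sample. Fibroblast Fzd4 is highest in pups in all 3 regions (145, 173 and 119 CPM), and smooth muscle Fzd1 reaches 328 CPM in the pup GE-SCJ.

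Smooth muscle had Fzd2 at 82.4 to 212 CPM and Fzd7 at 29.0 to 113. Fzd4 had 43.6, 52.8 and 136 CPM in stomach smooth muscle at E15, E19 and pup against 11.5, 4.32 and 8.72 in the esophagus, with log2 ratios of 1.84 [1.00, 2.78], 3.04 [1.45, 5.34] and 2.98 [1.08, 6.05]. The esophageal groups at E19 and pup held 2 and 1 UMIs of it in 42 and 22 cells. The 30 adult esophageal cells, outside this comparison, had 75.8 CPM [40.4, 130], above the stomach groups at E15 and E19. That level rested on 13 UMIs in 6 of the cells. Of 2187 genes, 0.549% were higher and 0.366% lower in stomach, and of 3 members Fzd4 was higher and none lower, a call that a minimum of 100 UMIs left out. Against smooth muscle of the same region, stomach fibroblasts had 2.72% of 3461 genes higher and 2.63% lower, and none of 4 members in either direction. Fzd1 was higher in stomach fibroblasts at E15 and E19 (log2 ratios 1.26 and 1.19) and lower in pups (-0.79 [-1.32, -0.29]).

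Pup smooth muscle of the GE-SCJ and stomach had the highest Fzd1 levels of the groups compared. Fzd1 had 45.6, 35.2 and 328 CPM in the GE-SCJ and 30.2, 38.8 and 185 in the stomach at E15, E19 and pup, but 33.5, 43.2 and 34.9 in the esophagus. The esophageal pup value rested on 4 UMIs in 22 cells. The 30 adult esophageal cells had 128 CPM [80.4, 194] on 22 UMIs, which lay in 7 of the cells. The pup to E15 log2 ratios were 2.84 [2.45, 3.23], 2.59 [2.10, 3.11] and 0.34 [-1.36, 1.69]. These ratios were added after the levels had been seen and were not repeated after thinning or under the other alternatives. Median depths were 4418 and 4586 UMIs per cell in pup GE-SCJ and stomach, against 12171 and 13329 at E15. In the GE-SCJ 11.4% of 6319 genes were higher and 12.4% lower in pups than at E15, and of 6 members Fzd1 and Fzd4 (1.56) were higher and Fzd3 lower, on 2 against 64 UMIs (-2.83 [-5.15, -1.22]). In the stomach 10.9% of 6331 genes were higher and 13.3% lower, and of 6 members Fzd1 and Fzd4 (1.64) were higher and Fzd5 (-1.31 [-2.31, -0.43]) lower, while Fzd3 was at -0.94 [-2.14, 0.10]. Fzd8 held fewer than 50 UMIs in each comparison and had ratios of 1.67 and 1.30. In the 2 pup groups the fibroblast markers summed to 7635 and 8699 CPM, against 2887 to 3831 in the other E15, E19 and pup groups. Pericyte markers summed to 825 and 1976 CPM against 112 to 227, and smooth muscle markers to 23921 and 21939 against 28657 to 50896. The adult esophageal cells, outside those ranges, had 3734 CPM of pericyte markers, the most of any smooth muscle group with at least 20 cells. Pup cells without a pericyte UMI had 502 CPM [366, 672] of Fzd1 in the GE-SCJ (21 cells) and 44.1 [5.34, 159] in the stomach (10 cells, 2 UMIs). The part of these markers in the Fzd1 levels was not tested further.

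Neural cells had Fzd3 as the largest member in the pooled counts, at 48.6 to 196 CPM over 7 groups. By group it led in 4 of 7. In pup esophagus (24 cells) Fzd1 had 107 CPM [53.4, 191] on 11 UMIs and Fzd3 48.6 [15.8, 113] on 5. In pup stomach (20 cells) Fzd8 had 150 CPM [84.2, 248] on 15 UMIs and Fzd3 80.2 [34.6, 158] on 8. The intervals overlapped in both groups. In E19 stomach Fzd2 and Fzd3 held 41 UMIs each. Fzd8, which lies at chr18:9212163-9218136 in 1 exon, ran from 28.9 CPM in the E15 esophagus to 150 in 20 pup stomach cells. Cells with more glia than neuron marker UMIs (330) had 71.0 CPM of Fzd8 and the 85 with more neuron markers 5.75, a log2 ratio of 3.41 [2.34, 4.75]. Fzd1 had 50.8 and 10.5 CPM in the same cells, and Fzd2 86.7 and 37.3. Fzd3 differed little, at 150 and 166 CPM. Endothelial groups had 101 and 147 CPM of Fzd4 and 25.9 and 27.0 of Fzd6. Immune groups had 26.9 to 85.7 CPM of the whole family, led by Fzd5 or Fzd7 in 3 groups each. These leads rested on few UMIs, such as 4 of Fzd5 against 3 of Fzd4 in pup esophagus. In E19 stomach they were 16 of Fzd7 against 15 of Fzd5. Immune groups also held 1429 to 6076 CPM of columnar markers and 254 to 4365 CPM of fibroblast markers. The part of such transcripts in the immune Frizzled counts was not tested.

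Genes of WNT reception were counted by the same rule from a list of 32, mostly co-receptors, receptor-removing ligases, polarity proteins and secreted inhibitors. The list also held Smo, a class F relative of the Frizzled receptors and not a partner of them, and the feedback gene Axin2. In esophageal squamous against stomach columnar cells, 2 of 18 tested were higher (Celsr1 and Smo) and 1 lower (Ror2), beside 3.64% and 4.68% of all genes. Celsr1, a cadherin of planar polarity, had 92.6, 70.2 and 35.0 CPM against 17.1, 19.1 and 7.97. In pup against E15 fibroblasts the secreted inhibitor Sfrp1 was higher in all 3 regions, with 1081, 1692 and 1467 CPM in pups against 220, 324 and 718. Sfrp2 was lower in all 3, with 7.96, 45.7 and 24.6 CPM against 161, 184 and 218. In the GE-SCJ, Celsr1 was higher in squamous than columnar cells as 1 of 14 tested and no gene was lower, beside 2.41% and 2.71% of all genes. Between stomach and esophagus none of 8 fibroblast genes was called (0.598% and 0.626% of all genes), nor of 8 between fibroblasts and smooth muscle of the stomach (2.72% and 2.63%). Pup against E15 squamous cells had 6 of 11 lower in the esophagus, where 33.9% of all genes were, and 2 of 13 in the GE-SCJ (13.2%). Adult against E15 had 6 of 15 lower (21.9%), with none higher in these 3 comparisons. List counts were not taken relative to the median gene, which was lower by 0.67, 0.34 and 0.44 in these 3. The lower list genes of the pup esophagus had log2 ratios from -1.01 (Ryk) to -1.71 (Rnf43). Fibroblasts had 2 higher and 4 lower of 21 in the esophagus (9.91% and 12.9% of all genes), 1 and 2 of 21 in the GE-SCJ (9.43% and 13.7%) and 2 and 2 of 20 in the stomach (8.37% and 11.3%). In columnar cells from E15 to pup, 10 of 20 list genes in the GE-SCJ and 9 of 20 in the stomach were lower and none higher, beside 21.8% and 20.9% of all genes lower. The median gene was lower by 0.38 in both. Of 6 smooth muscle genes Sfrp1 was higher and Sfrp2 lower in the stomach than in the esophagus, beside 0.549% and 0.366% of all genes. Sfrp2 had 53.8, 63.2 and 53.7 CPM in the stomach against 639, 231 and 209 in the esophagus. Pooled over regions and stages, the co-receptor Lrp6 had 107 CPM in fibroblasts, 56.8 in columnar and 47.6 in squamous cells. The ligase Rnf43, pooled likewise, had 24.1 CPM in squamous, 19.2 in columnar and 1.76 in fibroblasts. The squamous pool held a larger part of adult cells, and adult esophageal squamous cells had 34.6 CPM of Lrp6. Esophageal squamous and stomach columnar cells had 76.3 and 71.2 CPM of Lrp6 at E15 and 50.4 and 46.5 in pups. In the GE-SCJ the squamous and columnar values were 48.7 and 91.4 at E15 and 56.7 and 52.1 in pups.

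Across the 54 groups, which share 1 capture and differ in depth, the genes with the highest Pearson correlation of log2(CPM + 10) were, for Fzd5, Sult1d1 (0.79), Hnf4a (0.78) and Myo16 (0.78). For Fzd6 they were Fam129b (0.85), Itgb4 (0.82) and S100a16 (0.81), for Fzd2 Ift74 (0.89), Tceal1 (0.87) and Ndn (0.87), while for Fzd1 they were Antxr1 (0.88), Col16a1 (0.88) and Rerg (0.86). Fzd3 was nearest to Pfn2 (0.83), Usp22 (0.82) and Zfp266 (0.82), and Fzd4 to Adamts9 (0.81), Tns2 (0.80) and Plagl1 (0.77). Fzd7 was nearest to Sdc2 (0.86), Lhfp (0.85) and Zfp651 (0.85), and Fzd8 to Lsamp (0.83), Col9a2 (0.82) and Tafa5 (0.82). Among members the highest was Fzd2 with Fzd7 (0.78) and the lowest Fzd6 with Fzd7 (-0.34). These are descriptions over groups, and restricting them to the 33 groups of at least 50 cells replaced each of the 24 named genes. With log2(CPM + 1), 9 of the 24 were kept, and 6 of the 8 members kept fewer than 2 of their 3.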

How the data were processed

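Per the deposited files, the values were UMI counts per gene and cell, which the authors made from 10x Genomics 3′ v3.1 CellPlex libraries with Cell Ranger 6.1.1 (multi, mm10). The authors also deposited the mitochondrial percent of each cell, tag assignments, cell labels and clusters; they kept cells with 100 to 8500 genes, at most 80000 UMIs and at most 20% mitochondrial UMIs. Counts were summed over cells of a class, region and stage with at least 20 cells and divided by the group's total (CPM). Ratios had 1 UMI added to each sum. Intervals were Poisson, Clopper-Pearson or conditional binomial at 95%, and no p-value was computed. Genes named beside the 10 members were those of a list of 32 genes, most of which act with the receptors, and the 3 most correlated genes per member. The ratios from E15 to pup in smooth muscle, and the shares of all genes beside them, were chosen after the levels were seen. The members and lists were chosen with earlier results of these data known. Doublets were left as the authors' filters left them. Scripts used Python 3.11.15, numpy 2.4.6, scipy 1.17.1 and pandas 2.3.3, and were tested on simulated data.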

Additional observations from a re-analysis of the deposited data

How the results depend on the processing

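Pup against E15 smooth muscle was not among the comparisons rerun under the alternatives. Among those rerun, no called ratio of a member turned direction, and 241 of 284 counts of called members stayed the same or nearly so. The other 43 counts of members called differed as follows. Esophageal squamous against stomach columnar, higher (1): mean of per-cell CPM 2, ratios divided by the median 2, at least 100 UMIs 0, at least 1 UMI 2, 1.5-fold 3, first squamous label only 2; lower (1): mean of per-cell CPM 2, 1.5-fold 2, own markers largest 2. GE-SCJ squamous against columnar: lower (2) 1 at 100 UMIs, higher (0) 1 at 1 UMI. Stomach against esophageal smooth muscle, higher (1): 0 at 100 UMIs, 2 at 1 UMI. Pup against E15, esophageal squamous, lower (2): 1 by the median, 5 at 1 UMI, 1 with the first label, higher (1): 0 at 100 UMIs, 0 with the first label; GE-SCJ squamous, lower (2): 0 at 100 UMIs; GE-SCJ columnar, lower (3): 6 at 1 UMI, 5 at 1.5-fold; stomach columnar, higher (0): 1 by the median, 1 at 1 UMI, 1 at 1.5-fold, 2 thinned, lower (5): 3 by the median; esophageal fibroblasts, lower (1): 2 by mean of per-cell CPM, 2 without the top 1% of cells, 3 at 1.5-fold, 2 with own markers, 2 thinned, 2 in G1 cells, higher (1): 5 at 1 UMI, 0 with own markers; GE-SCJ fibroblasts, lower (1): 0 at 100 UMIs, higher (1): 3 at 1 UMI, 2 at 1.5-fold; stomach fibroblasts, lower (2): 1 each by mean of per-cell CPM, by the median, with own markers and thinned, higher (1): 3 at 1 UMI. Adult against E15, lower (3): 5 at 1 UMI. Smaller changes among the lower members were kept within the 241. Pup GE-SCJ columnar cells lost Fzd1 at 100 UMIs and gained Fzd6 thinned. Stomach columnar cells gained Fzd8 at 1.5-fold, thinned and in G1 cells, and Fzd10 at 1 UMI. They lost Fzd1 thinned. Thinned GE-SCJ fibroblasts had Fzd2 in place of Fzd8. Adult against E15 lost Fzd7 by the median and at 100 UMIs, and gained Fzd1 at 1.5-fold. The cause was not tested. The settings for G1 cells, the first squamous label and adult cells without prenatal neighbours were added after the data were seen; G1 cells were too few in GE-SCJ columnar cells. Of 240 shares of cells 177 moved, mostly with depth. Depth limits Fzd9 and Fzd10 most, and each region and stage is 1 pooled sample, so spread between animals is unknown. No paired analysis was possible because each group is 1 pooled sample with no test.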

Other observations

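The gene Fzd10os lies at chr5:128579130-128600687 in RefSeq, 156 bases before the GENCODE start of Fzd10, and had 378 UMIs. It had 11.5 CPM in squamous cells, 6.38 in fibroblasts and 2.40 in smooth muscle. In prenatal GE-SCJ and stomach fibroblasts it had 168 UMIs in cluster 0 and 3 in cluster 3, with levels of 11.7 and 0.549 CPM. Whether reads were counted by strand is not given in the sources used here.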
